A study of Homo sapiens with 24 samples.

Results

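The tight junction and desmosome genes described here are 10 human genes of cell-cell contacts: the claudins CLDN1, CLDN4 and CLDN7, occludin (OCLN), E-cadherin (CDH1), the desmosomal cadherins DSC2, DSC3, DSG2 and DSG3, and desmoplakin (DSP). They were taken by symbol, through the annotation of the array platform, as all 16 probes of the 10 symbols among the 47323 probes of the array. Of these, 14 probes of 9 genes passed a filter on dim probes (detection p under 0.05 on at least 4 of 24 arrays), and the 9 genes were tested among 12357 genes. MCF10A, an established non-tumorigenic line of human mammary epithelial cells, was used as 3 stable lines: cells with a control vector (VEC), and cells expressing the CYT1 or the CYT2 isoform of ERBB4, a receptor tyrosine kinase. All cells were deprived of serum for 48 h and then received NRG1 (neuregulin 1, a ligand of ERBB4) for 2 h or no ligand. The 6 groups, each line without ligand and each line with NRG1, held 2 biological samples each, and each sample was read on 2 technical Illumina arrays. The title of the series names full-length receptors of the JM-a type, whereas the labels of the samples write ICD before the isoform, so the names CYT1 cells and CYT2 cells are kept here. Which promoter drives the receptor, and whether each line is a clone or a pool, is not given in the sources used here. Each construct stands in its own line only, so the receptor and the derivation of a line cannot be told apart. Nothing in the labels says that the biological samples came from separate cultures, so the spread behind each p-value may be technical.

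Tight junctions seal the space between epithelial cells through strands of claudins and occludin. Adherens junctions hold neighbouring cells together through E-cadherin, which is bound to the actin cytoskeleton by catenins. In desmosomes, desmocollins and desmogleins of adjacent cells meet, and desmoplakin ties them to keratin filaments; in the mammary gland these contacts keep the duct epithelium closed and firm. CYT1 carries a stretch in its cytoplasmic tail, absent from CYT2, through which phosphatidylinositol 3-kinase can be recruited.

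Between 18745 and 20370 probes were detected on an array, and the median scanner signal lay between 114 and 126.3 units. Values below are log2 normalized intensities, the mean of the 2 technical arrays of a sample, and a difference is between group means with its standard error (SE, from limma). Technical arrays of a sample differed by a root mean square of 0.311 for CLDN4 and of 0.0632 to 0.105 for the other 8 tested members. The basal keratins KRT5 and KRT14 and the luminal keratins KRT8 and KRT18 were detected on all 24 arrays, as were VIM and CDH2. KRT19 was detected on 1 array. The leukocyte marker PTPRC, the endothelial markers VWF and CDH5 and, of the fibroblast markers, PDGFRB, LUM and THY1 were detected on 0 arrays, whereas CD68 and CD14, which epithelial cells can also express, were detected on all 24. Of the other fibroblast markers DCN was detected on 24 arrays, COL1A1 on 18, COL1A2 on 14, COL3A1 on 2 and PDGFRA and FN1 on 1 each. The 1 probe listed for ERBB4 was detected on 0 of 24 arrays. Whether it lies in the introduced sequence is not known here, so the arrays do not check the lines' labels.

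CLDN7, a claudin of tight junctions and of the lateral membrane, was lower in both ERBB4 lines than in vector cells. In vector cells the 2 samples had 9.11 and 9.11 without ligand, and 9.10 and 8.88 with NRG1. In CYT1 cells they had 8.45 and 8.18 without ligand, and 8.39 and 8.11 with NRG1. In CYT2 cells they had 8.11 and 8.25 without ligand, and 8.13 and 8.002 with NRG1. All 4 samples of either ERBB4 line lay below all 4 vector samples, with no overlap. Averaged over ligand, CLDN7 was lower than in vector cells by 0.77 ± 0.092 in CYT1 cells (1.70-fold lower, adjusted p = 0.00247, limma with Benjamini-Hochberg adjustment over all genes) and by 0.93 ± 0.092 in CYT2 cells (1.90-fold lower, adjusted p = 0.000293, limma). The vector samples are shared by these comparisons, so the 2 differences are not independent. Without ligand CLDN7 was 1.73-fold lower in CYT1 cells (log2 difference -0.79 ± 0.13, adjusted p = 0.0289, limma) and 1.90-fold lower in CYT2 cells (-0.93 ± 0.13, adjusted p = 0.00481, limma). With NRG1 it was 1.89-fold lower in CYT2 cells (-0.92 ± 0.13, adjusted p = 0.0104, limma), and its difference in CYT1 cells was -0.74 ± 0.13 (adjusted p = 0.0817, limma), which missed the threshold of 0.05. Among the 9 tested members its group means had the widest range, 1.05 on the log2 scale, against a pooled SD of 0.14 between samples of a group. In bulk cultures, fewer cells that carry a transcript and less transcript per cell cannot be told apart.

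The CLDN7 calls averaged over ligand, and the call in CYT2 cells without ligand, held in each fit that left out 1 of the 12 samples. The call in CYT1 cells without ligand was lost without either vector sample (adjusted p = 0.163 without sample 1 and 0.0638 without sample 2, limma) and without either CYT1 sample (0.155 and 0.388). The call in CYT2 cells with NRG1 was lost without either NRG1-treated vector sample (adjusted p = 0.0826 and 0.0672, limma) and without either NRG1-treated CYT2 sample (0.0516 and 0.137). On the authors' values, which are neither background-corrected nor normalized, the difference in CYT1 cells was -0.48 without ligand (adjusted p = 0.0979, limma) and -0.49 averaged over ligand.

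**Figure D1:**
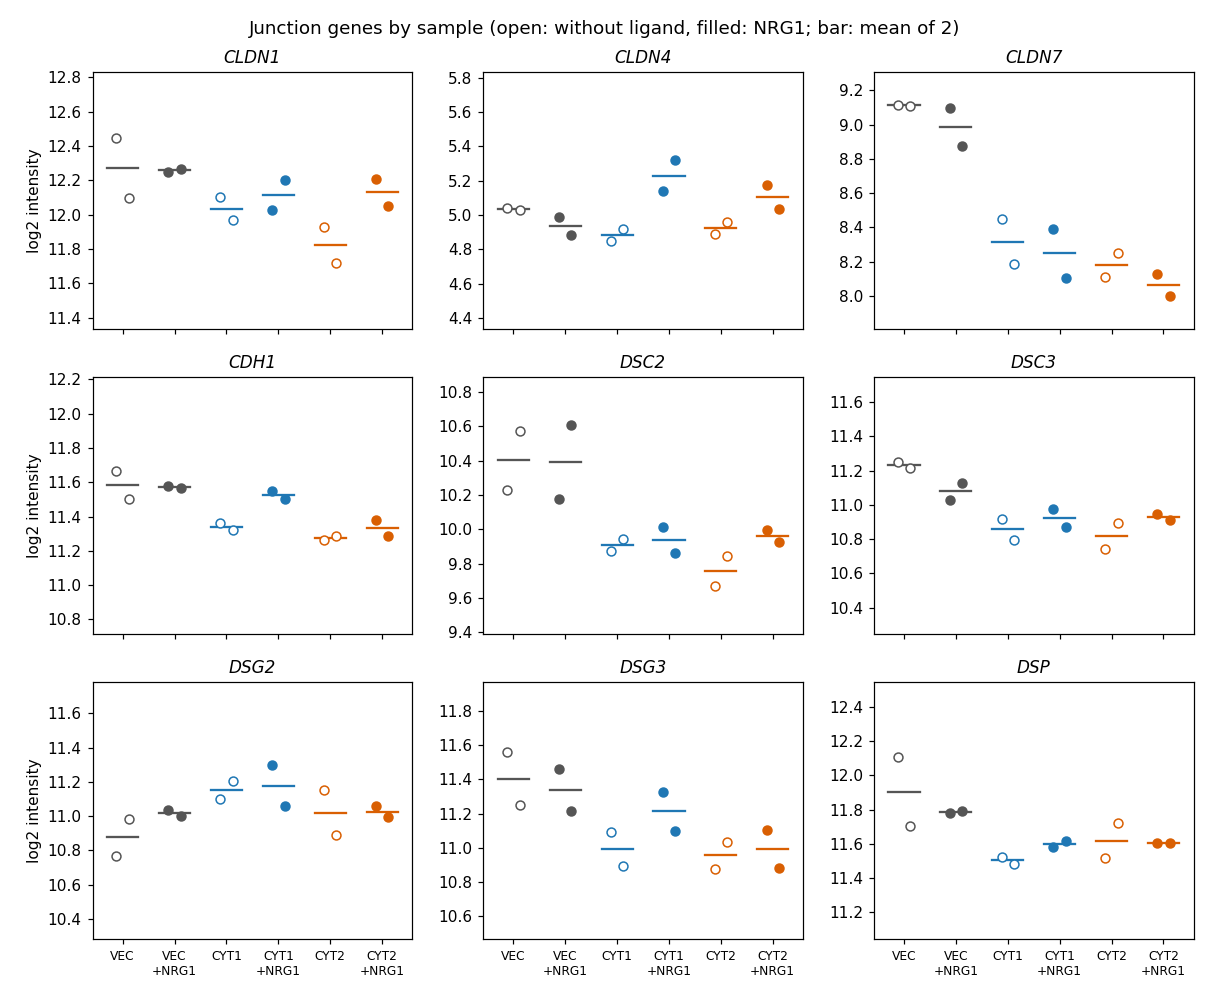
Log2 normalized intensity (vertical axis, the same span in each panel) of the 9 tested members in the 12 samples, by line and ligand. Open points are samples without ligand, filled points samples with NRG1, each the mean of 2 technical arrays, and bars are means of 2 samples. The CLDN7 points of the ERBB4 lines, 8.002 to 8.45, all lie under the vector points, 8.88 to 9.11.

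The other claudins did not pass the threshold in either ERBB4 line. CLDN1, a sealing claudin, had 12.45 and 12.10 in vector cells without ligand, 12.10 and 11.97 in CYT1 cells and 11.93 and 11.72 in CYT2 cells. With NRG1 it had 12.25 and 12.27 in vector cells, 12.03 and 12.20 in CYT1 cells and 12.21 and 12.05 in CYT2 cells. The CYT2 samples without ligand were the lowest of the 12, and averaged over ligand the samples of each ERBB4 line overlapped those of vector cells. The averaged difference was -0.19 ± 0.092 in CYT1 cells (adjusted p = 0.325, limma) and -0.29 ± 0.092 in CYT2 cells (adjusted p = 0.128, limma). CLDN4, a claudin that in cultured epithelia lowers passage of sodium ions, lay near the detection limit: its probe was detected on 13 of 24 arrays, with group means between 4.88 and 5.23. Both OCLN probes were detected on 0 of 24 arrays and were not tested, so no fold is given for OCLN, the transmembrane protein of tight junction strands.

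CDH1, the cadherin of adherens junctions, had 11.66 and 11.51 in vector cells without ligand and 11.58 and 11.57 with NRG1. CYT1 cells had 11.36 and 11.32 without ligand and 11.55 and 11.50 with NRG1, and CYT2 cells had 11.26 and 11.29 without ligand and 11.38 and 11.29 with NRG1. All 4 CYT2 samples lay below all 4 vector samples, whereas 1 NRG1-treated CYT1 sample reached the vector range. The difference averaged over ligand was -0.27 ± 0.067 in CYT2 cells (adjusted p = 0.0521, limma) and -0.15 ± 0.067 in CYT1 cells (adjusted p = 0.298, limma).

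DSC2, a desmocollin, was the other member past the threshold. Its samples had 10.23 and 10.57 in vector cells without ligand and 10.18 and 10.61 with NRG1. CYT1 cells had 9.87 and 9.95 without ligand and 10.01 and 9.86 with NRG1, and CYT2 cells had 9.67 and 9.84 without ligand and 9.995 and 9.93 with NRG1. The 8 samples of the ERBB4 lines lay below the 4 vector samples, with no overlap, and vector sample 2 was above vector sample 1 under both conditions. The averaged tests count same-numbered samples with and without ligand as independent. If they are not, the averaged p-values and the lack of overlap rest on fewer than 4 independent vector samples. DSC2 was lower in CYT2 than in vector cells by 0.65 ± 0.15 without ligand (1.56-fold lower, adjusted p = 0.0492, limma) and by 0.54 ± 0.11 averaged over ligand (1.45-fold lower, adjusted p = 0.0225, limma). The difference in CYT1 cells averaged over ligand was -0.47 ± 0.11 (adjusted p = 0.0605, limma). The call without ligand held in 2 of the 12 fits that left out 1 sample, with the highest adjusted p, 0.266, without CYT2 sample 1. The averaged call was lost without vector sample 2 (0.0656), NRG1-treated vector sample 2 (0.0987), CYT2 sample 1 (0.0902) and NRG1-treated CYT2 samples 1 (0.0524) and 2 (0.0953).

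DSC3, the other desmocollin, and DSG3, a desmoglein of basal layers of stratified epithelia, did not pass the threshold. DSC3 had 11.25 and 11.21 in vector cells without ligand, 11.03 and 11.13 with NRG1, and values between 10.75 and 10.98 in the 8 samples of the ERBB4 lines, all below the vector samples. Its averaged difference was -0.26 ± 0.070 in CYT1 cells (adjusted p = 0.105, limma) and -0.28 ± 0.070 in CYT2 cells (adjusted p = 0.0551, limma). DSG3 had 11.56 and 11.25 in vector cells without ligand and 11.46 and 11.21 with NRG1, against 11.09 and 10.89 in CYT1 cells and 10.88 and 11.03 in CYT2 cells without ligand. With NRG1 it had 11.33 and 11.10 in CYT1 cells and 11.11 and 10.88 in CYT2 cells. Its 4 CYT2 samples lay below the vector samples and its CYT1 samples overlapped them, and the averaged difference was -0.40 ± 0.10 in CYT2 cells (adjusted p = 0.0594, limma) and -0.27 ± 0.10 in CYT1 cells (adjusted p = 0.21, limma).

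DSG2, the desmoglein of simple epithelia as well as stratified ones, had the opposite sign. It had 10.77 and 10.99 in vector cells without ligand and 11.04 and 10.999 with NRG1, against 11.10 and 11.20 in CYT1 cells without ligand and 11.30 and 11.06 with NRG1. CYT2 cells had 11.15 and 10.89 without ligand and 11.06 and 10.996 with NRG1. All CYT1 samples lay above all vector samples, and CYT2 samples overlapped them, but neither averaged difference passed the threshold (0.22 ± 0.087, adjusted p = 0.234, in CYT1 cells and 0.076 ± 0.087, adjusted p = 0.731, in CYT2 cells, limma). DSP, the plaque protein, had 12.11 and 11.70 in vector cells without ligand and 11.78 and 11.79 with NRG1, and values between 11.48 and 11.72 in the ERBB4 lines. Vector sample 1 without ligand was the highest of the 12, and the averaged difference was -0.29 ± 0.088 in CYT1 cells (adjusted p = 0.138, limma) and -0.23 ± 0.088 in CYT2 cells (adjusted p = 0.204, limma).

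Over the 9 tested members, the count past the threshold in CYT1 against vector cells was 1 (CLDN7, lower) without ligand, where 0.194% of all genes were called, 0 with NRG1, where 0.0162% were called, and 1 (CLDN7, lower) averaged over ligand, where 0.979% were called. At an unadjusted p under 0.05, limma counted 7, 3 and 7 members, against 14%, 9.01% and 16.5% of all genes. In CYT2 against vector cells it was 2 (CLDN7 and DSC2, lower) without ligand, where 1.93% of all genes were called, 1 (CLDN7, lower) with NRG1, where 0.397% were called, and 2 (CLDN7 and DSC2, lower) averaged over ligand, where 2.49% were called. At an unadjusted p under 0.05 it counted 7, 4 and 7 members, against 16.4%, 9.48% and 16.3% of all genes. The differences were below 0 for 8 of 9 members in each ERBB4 line without ligand, with a median of -0.37 in CYT1 and -0.41 in CYT2 cells against 0.0048 and 0.015 over all genes. Averaged over ligand they were below 0 for 7 of 9 members in each line, with a median of -0.26 in CYT1 and -0.28 in CYT2 cells against -0.0014 and 0.0080 over all genes. On the authors' log2 values, which are not normalized, 7 of 9 members in CYT1 and 8 of 9 in CYT2 cells were below 0 without ligand, and 6 and 7 averaged over ligand. Medians over all genes on those values were 0.107 (CYT1) and 0.014 (CYT2) without ligand, and 0.074 and 0.028 averaged. CDH1 turned to 0.0021 in CYT1 cells averaged over ligand and CLDN4 to 0.0044 in CYT1 cells without ligand, both still below these medians. These counts rest on 9 probes and on vector samples that both lines share.

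By sample overlap, 7 of 9 members lay wholly below vector cells in CYT1 cells without ligand (21.1% of all genes did so), 6 with NRG1 (20.2% of all genes) and 4 over both conditions (4.92% of all genes). In CYT2 cells 7 of 9 lay below without ligand (19% of all genes), 7 with NRG1 (25.8% of all genes) and 5 over both conditions (4.91% of all genes). The 5 were CLDN7, CDH1, DSC2, DSC3 and DSG3, and the 4 in CYT1 cells were CLDN7, DSC2, DSC3 and DSP. The log2 of the summed level of the 3 measured of 6 basal epithelial markers ran from 14.35 to 14.62 in vector samples, 14.16 to 14.33 in CYT1 samples and 14.24 to 14.41 in CYT2 samples, so the CYT1 range lay under the vector range. That of the 5 measured of 11 mesenchymal markers ran from 12.54 to 12.80, 12.72 to 12.91 and 12.54 to 12.67, and 1 of the 5, COL1A1, was lower in CYT2 cells averaged over ligand (-0.36, adjusted p = 0.0492, limma; lost in 10 of 12 fits without 1 sample, and at -0.099 on the authors' unnormalized values). COL1A1 was detected on 2 of 4 CYT2 arrays without ligand and 2 of 4 with NRG1, so its difference rests in part on values near background. The log2 sum of the 4 measured of 5 luminal markers ran from 11.82 to 12.10 in vector samples. It ran from 11.75 to 11.90 in CYT1 and 11.62 to 11.94 in CYT2 samples, so these ranges overlapped. The part of the basal and luminal markers and of COL1A1 in the members' differences was not tested.

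**Figure D2:**
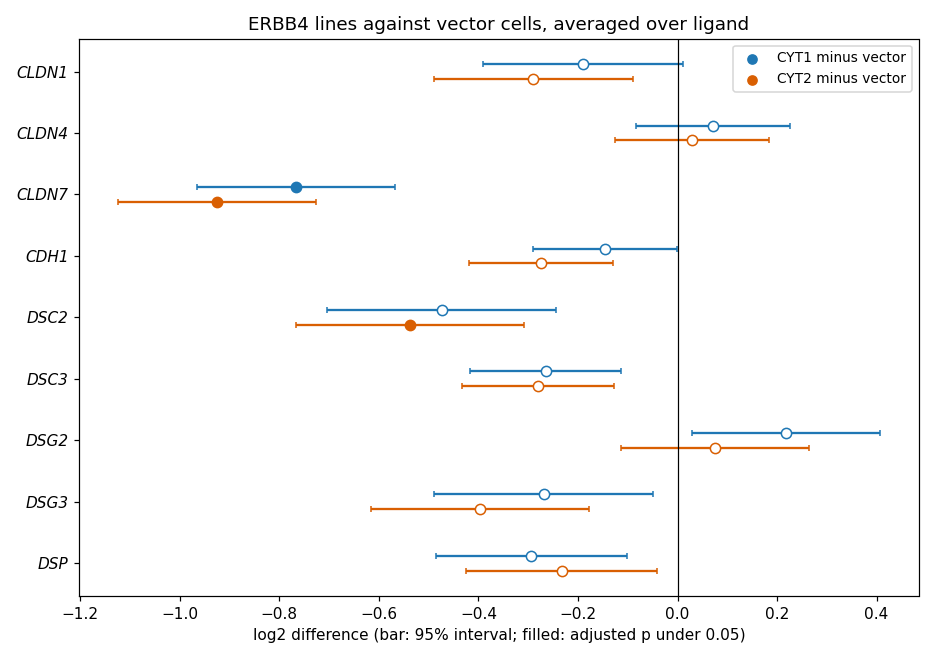
Log2 difference of each ERBB4 line from vector cells, averaged over ligand (horizontal axis), for the 9 tested members, with 95% intervals from limma. Filled points passed the threshold: CLDN7 at -0.77 and -0.93, and DSC2 at -0.54 in CYT2 cells, while the DSG2 points lie above 0.

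The isoforms did not differ past the threshold for any member. In CYT1 against CYT2 cells the count was 0 of 9 without ligand, where 0% of all genes were called, 0 with NRG1, where 0.00809% were called, and 0 averaged over ligand, where 0% were called. At an unadjusted p under 0.05 limma also counted 0 members in each of the 3 comparisons, against 5.52%, 6.57% and 9.29% of all genes. CLDN7 was 0.16 ± 0.092 higher in CYT1 than in CYT2 cells averaged over ligand, with a 95% interval from -0.041 to 0.36. The interval for DSC2 ran from -0.17 to 0.29, for CDH1 from -0.017 to 0.27 and for DSG3 from -0.092 to 0.35, so differences of these sizes between the isoforms remain possible.

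NRG1 for 2 h moved no member past the threshold in any line. In vector cells 0 of 9 members were called, where 0% of all genes were, and limma counted 0 members at an unadjusted p under 0.05 (4.05% of all genes). In CYT1 cells 0 of 9 were called, where 0.0324% of all genes were, and 1 member had an unadjusted p under 0.05, as did 7.55% of all genes. In CYT2 cells it was 0 of 9, where 1.65% of all genes were called, and 1 member (11.4% of all genes). Taken over both ERBB4 lines it was 0 of 9, where 2.73% of all genes were called, and 1 member (14.5% of all genes). A count of 1 of 9 is near these shares. The median of the members was -0.066 in vector cells, 0.081 in CYT1 cells and 0.058 in CYT2 cells, against 0.012, -0.0065 and -0.018 over all genes. On the authors' unnormalized log2 values the median in vector cells turned to 0.072, beside 0.086 over all genes. In CYT1 cells 4 of 9 members had both NRG1 samples above both samples without ligand (16.8% of all genes did so). In CYT2 cells 5 of 9 did (21.2% of all genes), and in vector cells 1 of 9 did. Both NRG1 samples lay below for 3 members in vector cells and 0 in either ERBB4 line. The shares of all genes for vector cells and for lying below were not counted. Those counts of members therefore have no background and are no contrast between lines.

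CLDN4 was the member with the smallest p for NRG1. CYT1 cells had 4.85 and 4.92 without ligand, with 2 of 4 arrays detected, and 5.14 and 5.32 with NRG1, with 4 of 4 detected. CYT2 cells had 4.89 and 4.96 without ligand, with 0 of 4 arrays detected, and 5.17 and 5.03 with NRG1, with 4 of 4 detected. Vector cells had 5.04 and 5.03 without ligand and 4.99 and 4.88 with NRG1, with 2 and 1 of 4 arrays detected. In both ERBB4 lines the NRG1 samples lay above those without ligand, and in vector cells they lay below. On the authors' unnormalized values the difference in vector cells turned to 0.017, beside a median of 0.086 over all genes. With the main normalization the difference was 0.35 ± 0.10 in CYT1 cells (adjusted p = 0.429, limma) and 0.26 ± 0.071 over both ERBB4 lines (adjusted p = 0.0827, limma). The latter includes CYT2 samples without ligand, which were not well above background on any array, and so rests in part on a level that is only a bound. For that reason no fold is given for CLDN4 in CYT2 cells, where the adjusted p was 0.554 for NRG1 and 0.644 against vector cells without ligand (limma). The technical spread of this probe, 0.311, is close to the size of its differences.

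CLDN1 had the smallest p in CYT2 cells, where the NRG1 samples were 0.31 ± 0.13 above those without ligand (adjusted p = 0.385, limma). On the authors' unnormalized values this difference was 0.47 and passed the threshold (adjusted p = 0.0201, limma), beside a median of 0.105 over all genes. CLDN7 had NRG1 differences of -0.12 ± 0.13 in vector, -0.068 ± 0.13 in CYT1 and -0.12 ± 0.13 in CYT2 cells, each smaller than its SE. On the authors' unnormalized values it turned to 0.020 in vector and 0.071 in CYT2 cells, beside medians of 0.086 and 0.105 over all genes. CDH1 had 0.18 ± 0.094 in CYT1 cells (adjusted p = 0.695, limma) and 0.058 ± 0.094 in CYT2 cells. Differences of the NRG1 effect between lines were tested as interactions and none was called: 0 of 9 for CYT1 against vector cells (0% of all genes called), 0 for CYT2 against vector cells (0.243% of all genes called) and 0 for CYT1 against CYT2 cells (0.00809% of all genes called). At an unadjusted p under 0.05 limma counted 1, 0 and 0 members, against 5.94%, 8.29% and 3.62% of all genes. The 1 was CLDN4, with an interaction of 0.45 ± 0.14 (adjusted p = 0.806, limma).

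**Figure D3:**
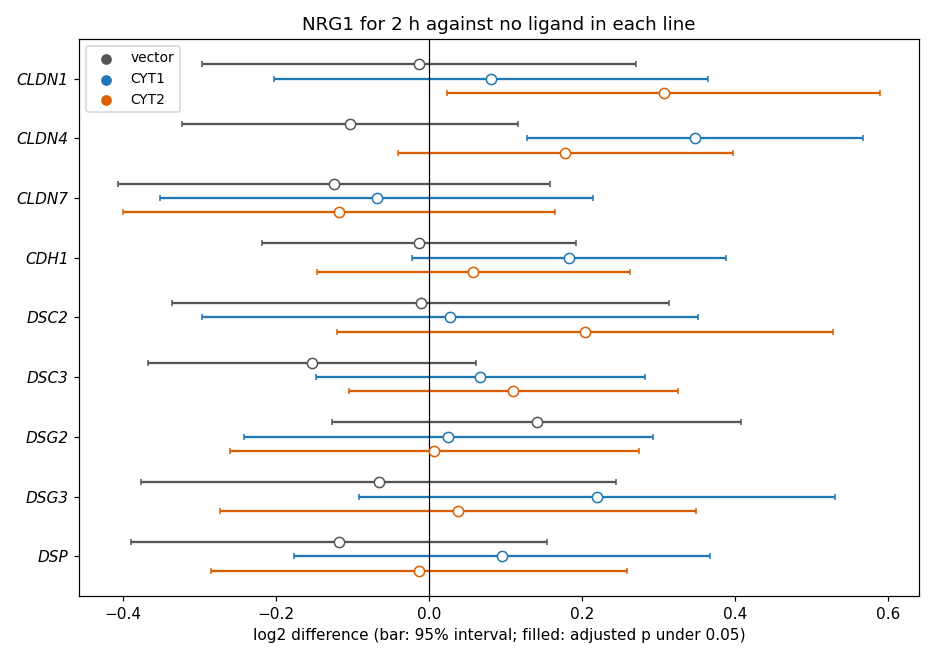
Log2 difference between samples with NRG1 for 2 h and samples without ligand (horizontal axis) in each line, for the 9 tested members, with 95% intervals from limma. All points are open, since none passed the threshold; the CLDN4 point in CYT1 cells is at 0.35 and the CLDN1 point in CYT2 cells at 0.31.

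Genes with more than 1 probe were compared by each probe, in a fit of all named probes. The second DSC2 probe, annotated to another transcript, moved with the first: it was lower in CYT2 cells by 0.49 ± 0.11 averaged over ligand (adjusted p = 0.0463, limma), and its difference in CYT1 cells was -0.42 ± 0.11 (adjusted p = 0.107, limma). The second DSC3 probe had 0.080 ± 0.12 in CYT1 cells and -0.15 ± 0.12 in CYT2 cells averaged over ligand, with samples that overlapped those of vector cells. Without ligand it had -0.37 ± 0.16 in CYT2 cells (adjusted p = 0.305, limma), with both samples below both vector samples, beside -0.41 for the first probe. The second DSG2 probe had 0.11 ± 0.15 and 0.013 ± 0.15, with samples that overlapped those of vector cells in both lines. Of the other DSP probes, the one for the same transcript had -0.44 ± 0.10 in CYT1 cells (adjusted p = 0.0736, limma) and -0.14 ± 0.10 in CYT2 cells. The one annotated to another DSP transcript had 0.081 ± 0.17 and -0.22 ± 0.17, and in vector cells it was 0.51 ± 0.25 higher with NRG1 without passing the threshold. The DSC3, DSG2 and DSP values given above therefore hold for their brightest probe, and CLDN1, CLDN4, CLDN7, CDH1 and DSG3 had 1 probe each.

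**Figure D4:**
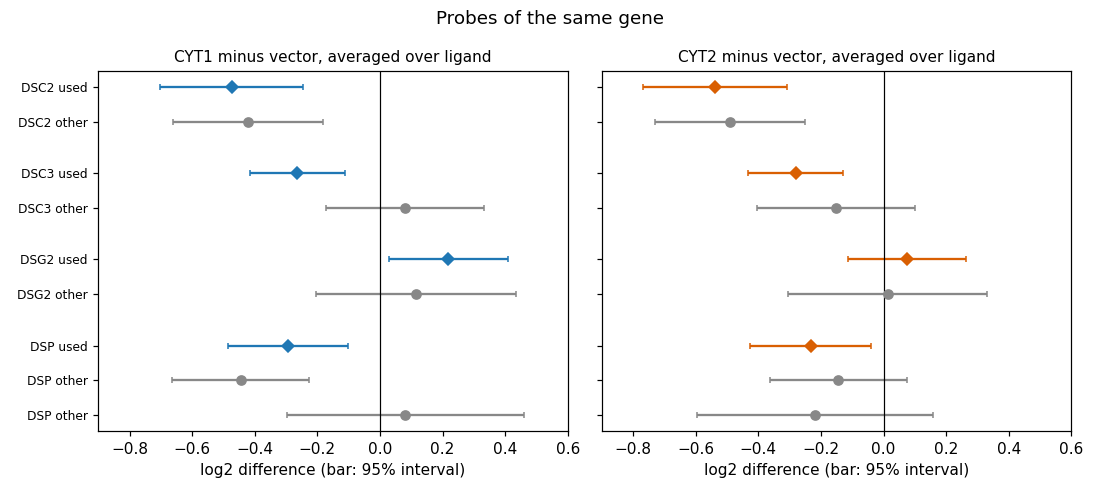
Log2 difference of each ERBB4 line from vector cells averaged over ligand (horizontal axis), for every kept probe of the members with more than 1, with 95% intervals from limma. Diamonds are the brightest probe, used above, and grey circles the others. Both DSC2 probes lie below 0, at -0.47 and -0.42 in CYT1 and -0.54 and -0.49 in CYT2 cells, while the DSC3 probes part, at -0.26 and 0.080 in CYT1 cells.

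The promoters of the 2 called members are shown beside that of DSG2, which had the opposite sign without passing the threshold. Matches to the E-box sequence CAGGTG, on either strand, are in capitals. This E-box is the sequence that repressors of the Snail family recognise in the CDH1 promoter. Each window reaches from 250 bases before to 50 bases after a gene start in RefSeq (GRCh38.p14), 5′ to 3′ on the strand of the gene. The first CLDN7 window, at chr17:7263164-7263463 on the minus strand, holds no match, and the second, at chr17:7262429-7262728 on the minus strand, holds 5. The DSC2 window shown, at chr18:31102372-31102671 on the minus strand, holds 1 and the other DSC2 window, at chr18:31101211-31101510, holds 0. The DSG2 window, at chr18:31497927-31498226 on the plus strand, holds 2.
CLDN7, first start: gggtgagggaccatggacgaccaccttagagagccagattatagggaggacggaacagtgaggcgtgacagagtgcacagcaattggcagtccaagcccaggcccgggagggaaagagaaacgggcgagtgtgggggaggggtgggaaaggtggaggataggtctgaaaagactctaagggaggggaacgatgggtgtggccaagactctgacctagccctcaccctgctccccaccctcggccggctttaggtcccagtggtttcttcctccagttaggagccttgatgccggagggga
CLDN7, second start: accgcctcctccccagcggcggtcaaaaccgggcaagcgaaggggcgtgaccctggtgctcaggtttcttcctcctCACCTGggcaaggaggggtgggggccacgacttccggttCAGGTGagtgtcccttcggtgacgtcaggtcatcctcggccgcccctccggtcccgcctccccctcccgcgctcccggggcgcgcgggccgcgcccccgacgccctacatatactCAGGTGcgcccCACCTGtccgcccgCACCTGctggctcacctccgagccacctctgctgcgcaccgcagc
DSC2, first start: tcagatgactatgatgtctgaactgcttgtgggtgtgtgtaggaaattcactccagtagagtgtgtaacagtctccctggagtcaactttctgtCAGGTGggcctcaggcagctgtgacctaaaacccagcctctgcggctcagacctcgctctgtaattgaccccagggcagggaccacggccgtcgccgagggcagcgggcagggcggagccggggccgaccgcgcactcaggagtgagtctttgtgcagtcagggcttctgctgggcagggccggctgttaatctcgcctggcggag
DSG2: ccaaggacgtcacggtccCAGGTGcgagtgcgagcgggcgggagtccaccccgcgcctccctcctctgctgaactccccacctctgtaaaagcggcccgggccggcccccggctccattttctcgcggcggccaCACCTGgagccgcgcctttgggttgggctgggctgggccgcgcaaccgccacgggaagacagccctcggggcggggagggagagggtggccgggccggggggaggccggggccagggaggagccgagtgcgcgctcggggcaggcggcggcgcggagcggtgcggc
Windows for 9 of the 10 members were at hand, 12 in all, since CLDN7, OCLN and DSC2 have 2 starts each. An E-box was found in 6 windows of 5 members (CLDN7, OCLN, DSC2, DSG2 and DSP) and in 20.6% of 35116 RefSeq promoter windows. The AP-1 motif TGANTCA was found in 1 window, that of CLDN4, and in 7.71% of all windows. The grainyhead-like motif AACCGGTT was found in 0 windows of the members and in 0.134% of all. CLDN7 and DSC2 each hold an E-box in 1 of 2 windows and DSG2 in its only window, and CLDN1, DSC3 and DSG3 hold none of the 3 motifs; a match is a stretch of letters, not a measured binding site. In the genome DSC3, DSC2, DSG3 and DSG2 lie in 1 run of desmosomal cadherin genes on chromosome 18, which also holds DSC1, DSG1 and DSG4. CLDN1, CLDN4 and CDH1 neighbour CLDN16, CLDN3 and CDH3.

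Other genes of the same structures were counted in the same way. Of 30 further tight junction genes 19 were tested. Averaged over ligand, 1 was called higher and 1 lower in CYT1 cells, where 0.979% of all genes were called. In CYT2 cells the count was 0, where 2.49% were called. In CYT1 cells averaged over ligand JAM3, a junctional adhesion molecule, was higher (0.38 ± 0.077, adjusted p = 0.0419, limma; samples 7.47 to 7.53 against 6.93 to 7.19 in vector cells), and CRB3, a polarity protein, was lower (-0.32 ± 0.068, adjusted p = 0.0472, limma). The median of the list was -0.048 in CYT1 and -0.033 in CYT2 cells averaged over ligand. The JAM3 call held in 2 and the CRB3 call in 1 of the 12 fits without 1 sample. On the authors' unnormalized values JAM3 had 0.33 (adjusted p = 0.0646, limma) and CRB3 -0.14 (0.126).

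Of 12 further desmosome genes 9 were tested. Averaged over ligand, 1 was called lower in each ERBB4 line, where 0.979% (CYT1) and 2.49% (CYT2) of all genes were called. For NRG1, 1 was called higher in CYT2 cells and over both ERBB4 lines, where 1.65% and 2.73% were called. PKP1, a plakophilin of the desmosomal plaque, was lower in CYT1 cells averaged over ligand (-0.72 ± 0.15, 1.65-fold, adjusted p = 0.0469, limma), with samples of 5.34 to 5.74 against 6.04 to 6.37 in vector cells. DSG1, the desmoglein of upper epidermal layers, was lower in CYT2 cells averaged over ligand (-0.69 ± 0.16, 1.61-fold, adjusted p = 0.0451, limma). Its samples had 4.84 to 5.52 against 5.62 to 6.30 in vector cells. It was detected on 2 of 4 CYT2 arrays without ligand, so the fold rests in part on values near background. Each of these 2 calls held in 2 of the 12 fits without 1 sample. PKP1 had -0.22 on the authors' unnormalized values (adjusted p = 0.116, limma) and -0.27 without background correction (0.0543). DSG1 had -0.23 (adjusted p = 0.273, limma) and -0.24 (0.0746) there. The list's median was -0.27 in CYT2 and -0.081 in CYT1 cells averaged over ligand, beside 0.0080 and -0.0014 over all genes. PKP2, a plakophilin of simple epithelia and heart, rose with NRG1 in CYT2 cells (0.70 ± 0.13, 1.62-fold, adjusted p = 0.0188, limma) and over both ERBB4 lines (0.57 ± 0.094, adjusted p = 0.00543, limma). It had 7.99 and 7.95 without ligand and 8.39 and 8.46 with NRG1 in CYT1 cells, and 8.04 and 7.65 against 8.46 and 8.63 in CYT2 cells. The call over both lines held in all 12 fits without 1 sample, and that in CYT2 cells was lost without CYT2 sample 2 (0.263) and without NRG1-treated CYT2 sample 1 (0.0741) or 2 (0.173).

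Of 12 further adherens junction genes 10 were tested, and 1, VCL (vinculin, which links cadherin complexes to actin), rose with NRG1 over both ERBB4 lines (0.35 ± 0.067, adjusted p = 0.0145, limma; held in 8 of 12 fits without 1 sample). Over both ERBB4 lines 2.73% of all genes were called for NRG1. Of 21 junction regulators 13 were tested, and SNAI1, ZEB1, ZEB2, GRHL2, OVOL1 and ESRP2 were detected on 0 arrays. For NRG1, 1 regulator was called in CYT2 cells (1.65% of all genes) and 1 over both ERBB4 lines. In CYT2 against vector cells 1 was called without ligand (1.93% of all genes) and 1 averaged over ligand (2.49%). SNAI2 (Slug), a Snail-family repressor of E-cadherin and other junction genes, rose with NRG1 in CYT2 cells (0.79 ± 0.15, 1.73-fold, adjusted p = 0.0187, limma) and over both ERBB4 lines (0.63 ± 0.11, adjusted p = 0.00643, limma). It had 9.97 and 10.04 without ligand and 10.74 and 10.22 with NRG1 in CYT1 cells, 9.75 and 9.63 against 10.59 and 10.37 in CYT2 cells, and 9.93 and 10.14 against 10.05 and 10.05 in vector cells. Without ligand it did not pass the threshold between lines, with -0.032 ± 0.15 in CYT1 and -0.35 ± 0.15 in CYT2 cells against vector cells (adjusted p = 0.946 and 0.273, limma). Its call over both lines held in all 12 fits without 1 sample, and that in CYT2 cells was lost without CYT2 sample 1 (0.0616) or 2 (0.237) and without NRG1-treated CYT2 sample 1 (0.18). TWIST1, a transcription factor of mesenchymal cells, was below vector cells in CYT2 cells without ligand (-0.54 ± 0.11, adjusted p = 0.0274, limma; held in 9 of 12 fits without 1 sample). On the authors' unnormalized values it had -0.37 (adjusted p = 0.124, limma). EPCAM, an epithelial adhesion molecule that binds CLDN7, was higher in CYT2 cells averaged over ligand (0.45 ± 0.084, 1.37-fold, adjusted p = 0.017, limma; held in 7 of 12). Its samples had 10.11 to 10.34 in CYT2 and 9.61 to 9.86 in vector cells, with no overlap.

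Among the 5 genes most like CLDN7 in their pattern, by Pearson's r over the 12 samples, were SCD5 (0.973), KRT13 (0.952), KRT4 (0.941) and UGT1A6 (0.941). The points share lines and vector samples, so r here mainly describes the step between vector cells and both ERBB4 lines. SCD5 encodes a fatty acid desaturase and UGT1A6 a glucuronosyltransferase whose last exons are shared with other UGT1A genes. KRT13 and KRT4 encode the keratin pair of squamous epithelia that do not cornify, such as the oesophagus. KRT4 had 8.29 and 8.69 in vector cells without ligand and 8.14 and 8.60 with NRG1. It had 6.69 and 6.65, and 7.12 and 6.42 with NRG1, in CYT1 cells, and 5.59 and 6.61, and 6.45 and 6.26 with NRG1, in CYT2 cells. Averaged over ligand the KRT4 difference from vector cells was -1.71 ± 0.21 in CYT1 cells (3.27-fold) and -2.20 ± 0.21 in CYT2 cells (4.60-fold), and on the authors' unnormalized values -1.03 and -1.31. KRT13 was 2.83-fold lower in CYT1 cells, where it was detected on 2 of 4 arrays without ligand and 4 of 4 with NRG1. With this normalization it was at least 3.06-fold lower in CYT2 cells, where it was detected on 0 of 8 arrays. Over the alternatives its log2 difference ran from -1.59 to -0.52 in CYT1 and from -2.02 to -0.66 in CYT2 cells. SCD5 and UGT1A6 had differences of -0.49 and -0.67 in CYT1 cells and of -0.61 and -0.67 in CYT2 cells. Since these genes were chosen for their likeness to CLDN7 over the same samples, their differences are given as a description, with no test.

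**Figure D5:**
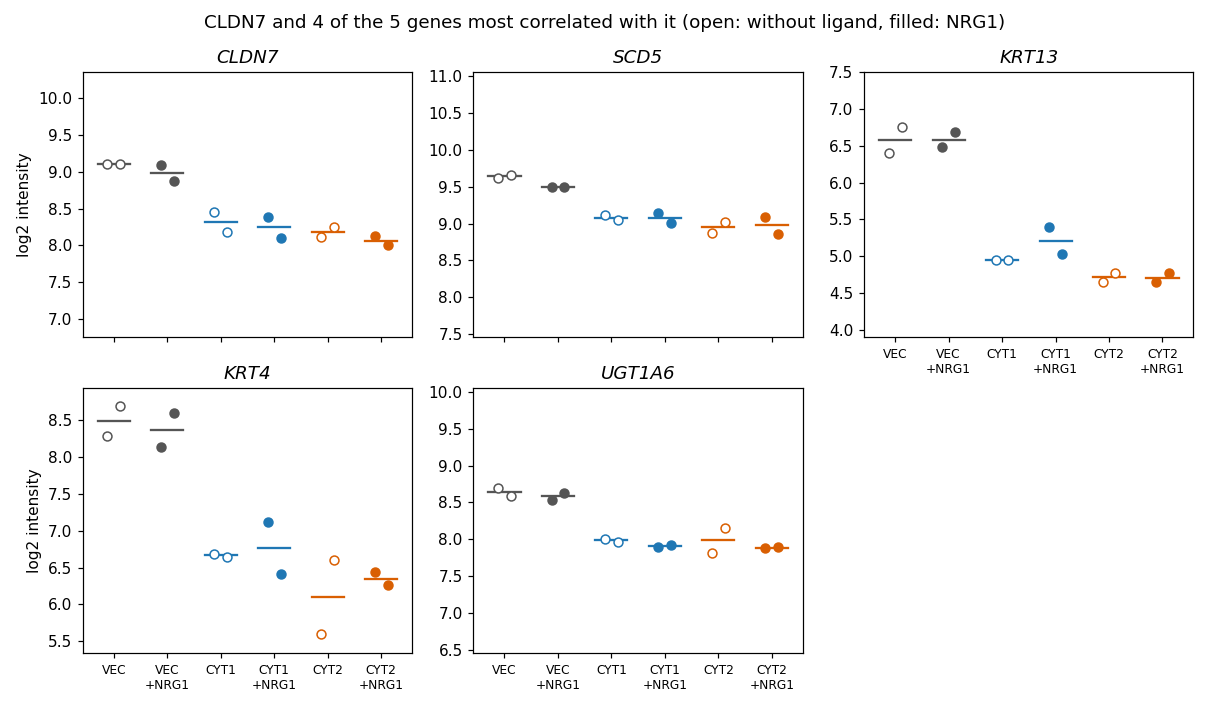
Log2 normalized intensity (vertical axis, the same span in each panel) of CLDN7 and 4 of the 5 genes most correlated with it over the 12 samples, by line and ligand. Open points are samples without ligand, filled points samples with NRG1, bars means of 2 samples. In each panel the 4 vector points lie above the 8 points of the ERBB4 lines; for CLDN7 the gap is from 8.45 to 8.88.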

How the data were processed

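RNA of 12 biological samples was read on 24 Illumina arrays. Per the file headers, each probe has an intensity (mean bead signal) and a detection p-value on each array of the deposited scanner table. The authors' deposited value table equals the log2 of those intensities to within 5e-09, with column medians of 6.83 to 6.98, so it is neither background-corrected nor normalized; it served as an alternative. The scanner software is not given in the sources used here.

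Background correction and quantile normalization used neqc (limma 3.58.1, R 4.3.3; offset 16, negative controls inferred from detection p-values). Probes with a detection p under 0.05 on at least 4 of 24 arrays were kept (23019 probes, 16620 of them named). Of all probes, 30113 had 1 symbol in the platform annotation, 8 had several and 17202 were not listed there; 30074 were matched to current symbols through the gene identifier. The brightest probe stood for a gene, giving 12357 genes. Technical arrays were averaged, and 1 model of the 6 group means (lmFit, eBayes; 6 residual and 6.31 prior degrees of freedom) gave 16 comparisons, adjusted by Benjamini-Hochberg over all genes, with a threshold of 0.05. The script was tested on simulated data with 200 genes changed in NRG1-treated CYT2 samples. The simulated samples were independent, so pairing of samples and differences between lines were not covered. The number of samples, 2 in each group, limits the precision.

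The members, the gene lists and the tests were chosen with earlier results of these data known. All 10 members, list genes past the threshold and the 5 genes most correlated with the member of widest range are named, except 1 of these 5, which is not reported here. Alternatives changed the value table, background correction, offset, filter, probe choice, variance moderation, technical arrays, samples in the fit, replicate block and each sample. Files named no chips or scan dates, so no chip was tested as a batch.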

Additional observations from a re-analysis of the deposited data

How the results depend on the processing

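Each result was recomputed under 25 alternatives, 12 of which left out 1 sample. No called value changed direction. CLDN7 stayed past the threshold in 25 of 25 alternatives in CYT2 against vector cells without ligand (log2 difference -1.0 to -0.72) and in both lines averaged over ligand, in 20 of 25 in CYT2 cells with NRG1 and in 16 of 25 in CYT1 cells without ligand; DSC2 stayed in 17 of 25 in CYT2 cells averaged over ligand and in 9 of 25 without ligand. Of 3425 alternative values of the 137 uncalled member differences, 3359 stayed uncalled and 66 became called; 124 of them changed sign.

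Counts of members past the threshold moved as follows where they changed by 1.5 times or more, with line and condition against vector cells. Of all 12357 genes the main fit called 24 and 239 without ligand (CYT1, then CYT2), 2 and 49 with NRG1, and 121 and 308 averaged. With the authors' value table the member counts were 0 (CYT1, no ligand), 1 (CYT2, no ligand), 0 (CYT2, NRG1) and 1 (CYT2, averaged). Of all genes it called 0, 38, 8 and 52 there. CLDN1 alone was called for NRG1 in CYT2 cells and over both ERBB4 lines, 1 each. There 276 and 390 of all genes were called, against 204 and 337 in the main fit. That table shifted the median of all genes by up to 0.107, in CYT1 against vector cells without ligand. Quantile normalization without background correction gave 2 and 4 without ligand and 3 and 5 averaged (CYT1, then CYT2). Of all genes it called 87 and 338 without ligand and 201 and 395 averaged. An offset of 50 gave 1 (CYT1, NRG1), 3 and 5 averaged, and 3 (CYT2, no ligand, with DSC3 added) against 2. Of all genes it called 14 (CYT1, NRG1), and 203 and 460 averaged. No filter gave 0 and 1 without ligand (3 and 176 of all genes called). Detection on at least 12 arrays gave 4 (CYT2, averaged, 358 of all genes) and 3 (CYT2, no ligand, with DSC3 added). All probes tested gave 1 (CYT2, no ligand, 205 of all genes). The mean of the probes gave 2 (CYT1, averaged, 93 of all genes) and 3 (CYT2, averaged, with CDH1 added). Trend and robust moderation gave 5 (CYT2, no ligand), 1 (CYT1, NRG1), 3 and 6 averaged. Of all genes it called 333, 22, and 214 and 446 there. All 24 arrays with the sample as a random block gave 5 and 6 without ligand, 1 and 2 with NRG1, 5 and 7 averaged. Of all genes this fit called 398 and 785 without ligand, 92 and 216 with NRG1, and 721 and 830 averaged. Calls thus rose over all genes too. Technical arrays 1 gave 0 and 1 without ligand (1 and 119 of all genes called). Technical arrays 2 gave 0 and 1 without ligand (2 and 71 of all genes) and 1 (CYT2, averaged, 100 of all genes). Only the groups compared gave 0 and 1 without ligand (8 and 148 of all genes). The cause of these moves was not tested. The last 3 alternatives also used fewer arrays or samples.

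Over all genes the samples' numbers showed little pairing. Across 15 pairs of groups, same-numbered deviations had r from -0.17 to 0.23, with 4 over 0.1. Between a line with and without NRG1, r was 0.23 in vector, -0.17 in CYT1 and 0.18 in CYT2 cells. Pairing of single genes was not tested. A replicate block gave 1 (CYT1, NRG1, with 15 of all genes called), 2 (CYT1, averaged, with 132) and 4 (CYT2, averaged, with 356: CLDN7, CDH1, DSC2 and DSG3). Without 1 sample each, the counts ran from 0 to 1 (CYT1, no ligand), 1 to 2 (CYT2, no ligand), 0 to 1 (CYT2, NRG1), 1 to 2 (CYT1, averaged) and 1 to 4 (CYT2, averaged); a lone sample is then assumed to vary like the other groups. With 2 samples a group and CLDN4 and OCLN at or under background, small differences are beyond these arrays.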
